A study of Mus musculus with 9 samples.

Results

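The histone genes of the clusters that supply new nucleosomes during DNA replication were followed in MC38 cells, a mouse colon carcinoma line. They were taken by symbol, as every gene named H1f, H2ac, H2bc, H3c or H4c with a number, which gave 64 of the 16509 genes in the deposited table: 9 of linker histone H1, 16 of H2A, 16 of H2B, 12 of H3 and 11 of H4. By what is known of these genes, 60 are replication-dependent. The symbols of 4 linker histone genes outside the clusters also matched, namely H1f0 and H1f10, which are expressed independently of replication, H1f8 of oocytes and H1f9 of spermatids, and these are kept apart below.

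RNA was sequenced in 9 libraries, with 3 replicates in each of 3 groups of MC38 cells. Ctrl cells received DMSO according to the sample labels and PBS according to the study's text. Cu-Cys cells received copper with cystine, and Cadict cells received a nanodrug in which copper and cystine are joined with GOx (glucose oxidase) and GE11, a peptide that binds the EGF receptor. No dose or time was given for these libraries, and the general remark in the study that cell experiments were repeated independently does not say whether these libraries came from separate cultures. If they did not, p-values cover only a technical spread between libraries. Library totals lay between 17905771 and 18293056 expected counts (reads assigned to a gene by an estimate that may split them), and a count of 0 allowed up to 3 counts, or 0.164 to 0.168 CPM (the count per fixed number of reads in the library).

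Replication-dependent histone mRNAs are made in S phase, when cyclin E with Cdk2 activates Npat at the clustered genes. Unlike other animal mRNAs, they end without a poly(A) tail: the U7 ribonucleoprotein, which contains Lsm10 and Lsm11, directs a cut just after a conserved stem-loop, and Slbp binds that stem-loop. A longer transcript of the same gene that runs past the stem-loop to a poly(A) site carries a tail. The labels state that these libraries were enriched with oligo(dT) beads, so they sample tailed histone transcripts and whatever untailed RNA came through the enrichment.

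In GENCODE M21 (build GRCm38), all 64 genes were matched, 50 of them on chromosome 13, 10 on chromosome 3, 2 on chromosome 6, 1 on chromosome 11 and 1 on chromosome 15. A search of their transcripts in the sense direction for a stem of 6 base pairs opening with GG around a loop of 4 bases opening with TTT found the stem-loop in 39 of 64, against 29 of 21837 other protein-coding genes (0.133%). The 6 genes below were measured well enough to test and have a match, and they show how nearly identical this element is. Capitals mark the stem and loop, with 5 bases on each side in lower case, and each window is in the 3′ UTR.
H1f2 (chr13:23739507-23739532, plus strand): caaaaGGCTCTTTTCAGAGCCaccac
H2ac8 (chr13:23570663-23570688, minus strand): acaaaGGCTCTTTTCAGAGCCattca
H2ac11 (chr13:22042478-22042503, minus strand): acaaaGGCTCTTTTCAGAGCCaccta
H2ac18 (chr3:96246027-96246052, plus strand): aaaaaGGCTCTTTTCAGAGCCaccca
H3c3 (chr13:23745042-23745067, minus strand): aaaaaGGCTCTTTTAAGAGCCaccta
H4c9 (chr13:22040961-22040986, minus strand): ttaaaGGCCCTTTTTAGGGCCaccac
The form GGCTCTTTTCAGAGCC was shared by 24 of the 39 genes, and the 39 carried 6 forms in all. No match was found in the transcripts of H2bc21 and H2bc4, which are long or spliced in this annotation, nor in those of the 4 genes outside the clusters. Others without a match are annotated with short transcripts, such as H4c12 with 312 bases and H2bc13 with 381. Such transcripts may stop before a stem-loop, so a gene without a match may still have one.

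These genes gave very few reads. The 64 together took 0.0398% ± 0.000928 (SD, n = 3) of expected counts in Ctrl cells, 0.0395% ± 0.000742 in Cu-Cys cells and 0.00364% ± 0.000312 in Cadict cells. Most of that was H1f0 alone, which held 84.6% to 85.9% of the members' counts in Ctrl cells, 84.6% to 85.7% in Cu-Cys cells and 13.4% to 14% in Cadict cells. The 60 replication-dependent genes summed to 703 ± 18.2 counts per library in Ctrl cells, 763 ± 26.6 in Cu-Cys cells and 533 ± 38.5 in Cadict cells, and the Cadict libraries lay below all others. As CPM of library totals these sums were 38.6 ± 1.07, 42.2 ± 1.68 and 29.7 ± 2.12. After TMM scaling, which sets libraries to a common composition and is used for the tests below, they were 30.5 ± 0.691, 35.0 ± 1.43 and 45.5 ± 3.96 CPM, so the direction depends on the scale.

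The classes did not move alike. Summed H1 counts were 101, 92 and 83 in Ctrl, 100, 99 and 100 in Cu-Cys, and 27, 22 and 41 in Cadict libraries. H2B sums were 363, 336 and 360 in Ctrl, 407, 325 and 317 in Cu-Cys, and 220, 227 and 223 in Cadict libraries, so both classes had fewer counts in every Cadict library than in any other. Each rested on 1 gene. H2B without H2bc21 summed to 125, 97 and 124 in Ctrl and to 157, 172 and 145 in Cadict libraries, and H1 without H1f2 to at most 16 counts in any library. After TMM scaling the whole H2B sum was higher in Cadict, at 19.1 ± 0.620 CPM against 15.3 ± 0.666 in Ctrl libraries, while the H1 sum stayed lower, at 2.55 ± 0.794 against 3.99 ± 0.375. H2A sums, by contrast, were 83.0, 72 and 58 in Ctrl, 84, 76.0 and 66 in Cu-Cys, and 118, 134 and 132 in Cadict libraries, without overlap. That difference in counts was carried by H2ac18: without it, H2A summed to 73.0, 65.3 and 49 in Ctrl and to 64, 84.0 and 63.0 in Cadict libraries, which overlap. After TMM scaling the H2A sum without H2ac18 was 6.02 ± 1.13 CPM in Cadict against 2.71 ± 0.521 in Ctrl libraries, without overlap. H3 sums were 29 to 34 in Ctrl, 29.0 to 32 in Cu-Cys and 40 to 53.0 in Cadict libraries. H4 sums were 142 to 168 in Ctrl, 171 to 234 in Cu-Cys and 84 to 136 in Cadict libraries. In counts, H3 was thus higher and H4 lower in every Cadict library. Without H4c9, H4 summed to 25, 20 and 20 in Ctrl and to 18, 49 and 25 in Cadict libraries. After TMM scaling the whole H4 sum was 8.85 ± 2.62 CPM in Cadict against 6.72 ± 0.566 in Ctrl libraries, which overlap. These sums are descriptions of the deposited counts at nearly equal library totals and carry no test, and the genes left out were chosen after their values were seen.

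**Figure D1:**
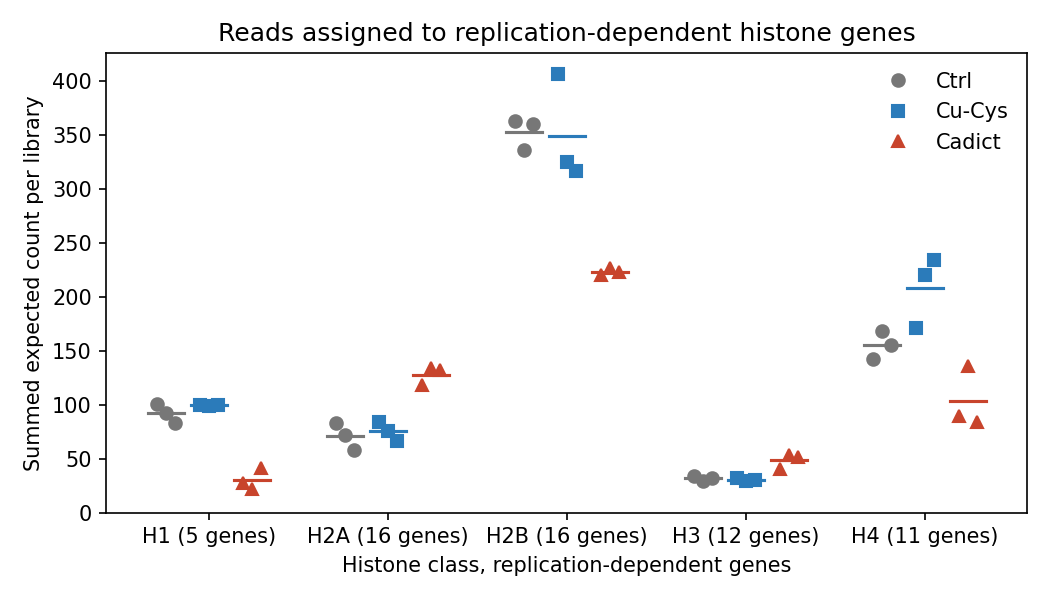
Summed expected count of the replication-dependent histone genes in each library (vertical axis, from 0) by histone class (horizontal axis); points are libraries and bars are group means of 3. In these unscaled counts H1, H2B and H4 were lower in every Cadict library, and H2A and H3 higher, than in any Ctrl or Cu-Cys library. After TMM scaling the mean H2B and H4 sums were higher in Cadict than in Ctrl libraries, with overlap for H4.

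A handful of genes held most of the counts. H2bc21, H4c9, H1f2 and H2bc4 together made up 72.9% to 76.3% of the replication-dependent counts in Ctrl libraries and 47.7% to 51.6% in Cadict libraries. Compared per length, as deposited TPM (transcript level per length and depth) in Ctrl cells, the order of the 10 genes tested below was H1f0 at 291 ± 8.61 (SD, n = 3), H4c9 at 140 ± 16.3, H1f10 at 46.7 ± 2.26, H2bc4 at 21.3 ± 3.99, H1f2 at 19.8 ± 2.84, H2ac11 at 12.1 ± 4.55, H2bc21 at 9.41 ± 0.163, H2ac8 at 8.89 ± 1.76, H3c3 at 7.22 ± 2.12 and H2ac18 at 3.53 ± 0.738. Of the untested genes, H4c18 at 6.19, H2bc8 at 4.83, H2bc11 at 4.28 and H4c2 at 4.13 lay between H3c3 and H2ac18. H2bc4 and H1f2 did not differ beyond their spread, and neither did neighbours in the order from H2ac11 through H2bc21 and H2ac8 to H3c3. The order depends on the transcript lengths behind the deposited TPM, which are not given. They need not be those of the GENCODE transcripts used here, such as 727 bases for H4c9. In counts H4c9 lay below H2bc21, at 117, 148 and 135 against 238, 239 and 236 in Ctrl libraries.

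Of the 64 genes, 10 passed edgeR's filter on low counts and were tested among 11949 genes. All comparisons below come from edgeR's quasi-likelihood test, with p-values adjusted by the method of Benjamini and Hochberg. A gene was called where its level differed by a factor of 2 or more and the adjusted p did not exceed 0.001. Levels are CPM after TMM scaling. That scaling matters here: the median log2 fold change over all tested genes in Cadict against Ctrl cells was -0.13 with TMM and -1.08 with library totals alone, so a gene that lost fewer reads than most appears higher after TMM scaling. With library totals the called genes split into 828 higher and 6148 lower, against 2472 and 3235 with TMM. In bulk RNA, fewer cells in S phase and less histone RNA per cell cannot be told apart.

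In Cadict against Ctrl cells, the tested linker histone genes H1f0, H1f10 and H1f2 were lower with TMM scaling. Tested core histone genes went both ways. Among the 10 tested, 3 were called higher (H2ac18, H2bc4 and H2ac8) and 2 lower (H1f0 and H1f10), where 20.7% of all tested genes were called higher and 27.1% lower. These shares are near those of the histone genes, so the number of calls does not set them apart. Both called falls belong to genes outside the clusters. The median log2 fold change of the 10 was 0.44, against -0.13 over all genes tested, and it was 0.95 for the 8 replication-dependent ones. H2ac18 passed the filter only through the Cadict libraries, so its rise was fixed by its selection. Without it 2 of 9 genes were called higher and 2 lower, and the median was 0.10.

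H1f0 encodes H1.0, the linker histone that accumulates in slowly dividing and differentiated cells. Its level was 262, 278 and 264 CPM in Ctrl, 281, 284 and 273 in Cu-Cys, and 6.80, 8.63 and 7.56 in Cadict libraries. All Cadict libraries were far below the others, which overlapped. The level was 35.0-fold lower in Cadict than in Ctrl cells (log2 fold change -5.13 ± 0.07 SE, adjusted p = 4.5e-17). H1f10, which encodes the linker histone H1x, was at 16.4, 15.3 and 16.2 CPM in Ctrl and at 1.61, 3.05 and 2.27 in Cadict libraries. It was 6.92-fold lower (log2 fold change -2.79 ± 0.14, adjusted p = 2.8e-11). Both genes have an annotated antisense neighbour in the same place, and the sources used here do not say whether counting used the strand.

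The replication-dependent linker histone gene H1f2, which encodes H1.2, lay just outside the limit on the fold change. It was at 4.20, 3.42 and 3.31 CPM in Ctrl and at 1.78, 1.57 and 2.1 in Cadict libraries, without overlap, a log2 fold change of -1.0 ± 0.18 (adjusted p = 9.3e-05) and thus a fold of 1.998. It was called lower with library totals (log2 fold change -1.95) and in each fit to TPM or FPKM. H2bc21, a long H2B transcript that shares no 50-base stretch with another gene, was at 10.3 CPM in every Ctrl library and at 5.35, 4.79 and 6.55 in Cadict libraries. Its log2 fold change was -0.89 ± 0.14 (adjusted p = 1.8e-05), which is short of the fold limit, and -1.84 with library totals, where it was called.

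H2ac18 of the small cluster on chromosome 3 showed the steepest rise among the 10 tested genes. It was at 0.433, 0.303 and 0.392 CPM in Ctrl, 0.231, 0.457 and 0.365 in Cu-Cys, and 4.59, 4.36 and 5.79 in Cadict libraries. In counts, these were 10, 6.71 and 9 in Ctrl against 54, 50 and 69 in Cadict libraries, a difference that needs no scaling to be seen. The fold was 12.9 (log2 fold change 3.69 ± 0.25, adjusted p = 7.9e-10). The filter asks for 10 counts at the median library total, or 0.552 CPM of library totals. It is applied before TMM scaling, so the levels above are not on its scale. The gene reached that in 0 of 3 Ctrl, 1 of 3 Cu-Cys and 3 of 3 Cadict libraries, so it was tested only because it was high with Cadict and had to differ.

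Every 50-base stretch of H2ac18 also occurs in another gene, and its near-copy H2ac19 lies beside it, so reads could not be placed with certainty. Summed, the pair gave 10, 10 and 9 counts in Ctrl, 11, 10 and 8 in Cu-Cys, and 54, 50 and 69 in Cadict libraries, whole numbers throughout. The sum was 11.6-fold higher in Cadict than in Ctrl cells (log2 fold change 3.53 ± 0.23, adjusted p = 4.6e-10), in a fit added after the data were seen. GENCODE also annotates a processed transcript, Gm20634, on the same strand across both H2ac18 and the neighbouring H3c14, and an antisense gene over H2ac18.

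H2bc4, an H2B gene whose annotated transcript is spliced, was at 3.24, 2.60 and 3.40 CPM in Ctrl, 4.25, 3.70 and 3.65 in Cu-Cys, and 8.50, 9.85 and 8.65 in Cadict libraries. The groups did not overlap, and the fold was 2.92 in Cadict against Ctrl cells (log2 fold change 1.54 ± 0.13, adjusted p = 2.2e-08). In unscaled counts the gene had 75.4, 59.8 and 77.9 in Ctrl and 99.7, 113 and 103 in Cadict libraries. With library totals its log2 fold change was 0.59 (adjusted p = 0.00059), and it was not called there or in the fits to TPM and FPKM.

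H2ac8, an H2A gene, was at 0.952, 1.13 and 0.741 CPM in Ctrl, 1.20, 1.01 and 0.638 in Cu-Cys, and 1.95, 2.61 and 2.02 in Cadict libraries. In Cadict against Ctrl cells its log2 fold change was 1.22 ± 0.27 (adjusted p = 0.00051). Its unscaled counts were 22.2, 26.5 and 17.0 in Ctrl and 23.2, 29.6 and 23.8 in Cadict libraries, which overlap. With library totals the log2 fold change was 0.27 and the call was lost, and on the TPM scale the sign turned. The call was also lost without any 1 of the Cadict libraries, without Ctrl replicate 1 or 3 and without Cu-Cys replicate 2 (adjusted p between 0.0011 and 0.0035). The rise of H2ac8 therefore rests on the scaling.

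The 3 remaining tested genes were not called. H4c9 had the highest deposited TPM of the replication-dependent genes in Ctrl cells, a rank that depends on the lengths behind that TPM. It was at 5.06, 6.41 and 5.89 CPM in Ctrl and at 6.12, 7.58 and 4.95 in Cadict libraries, which overlap (log2 fold change 0.10 ± 0.17, adjusted p = 0.59). With library totals its log2 fold change was -0.85 and on the TPM scale -1.34. H2ac11 was at 1.12, 0.866 and 0.480 CPM in Ctrl, 0.646, 1.14 and 0.958 in Cu-Cys, and 1.19, 1.66 and 1.43 in Cadict libraries. In Cadict against Ctrl cells its log2 fold change was 0.78 ± 0.33 (adjusted p = 0.037), and -0.17 with library totals. H3c3 was at 0.692, 0.476 and 0.392 CPM in Ctrl, 0.554, 0.457 and 0.547 in Cu-Cys, and 0.680, 1.57 and 1.18 in Cadict libraries. Its log2 fold change in Cadict against Ctrl cells was 1.12 ± 0.35 (adjusted p = 0.0075), and -0.26 on the TPM scale. The median over all tested genes was itself at -1.08 with library totals and -1.13 on the log2(TPM + 1) scale. H2ac11 and H3c3 stayed above that median on both, whereas H4c9 was above it with library totals and below it on the TPM scale.

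**Figure D2:**
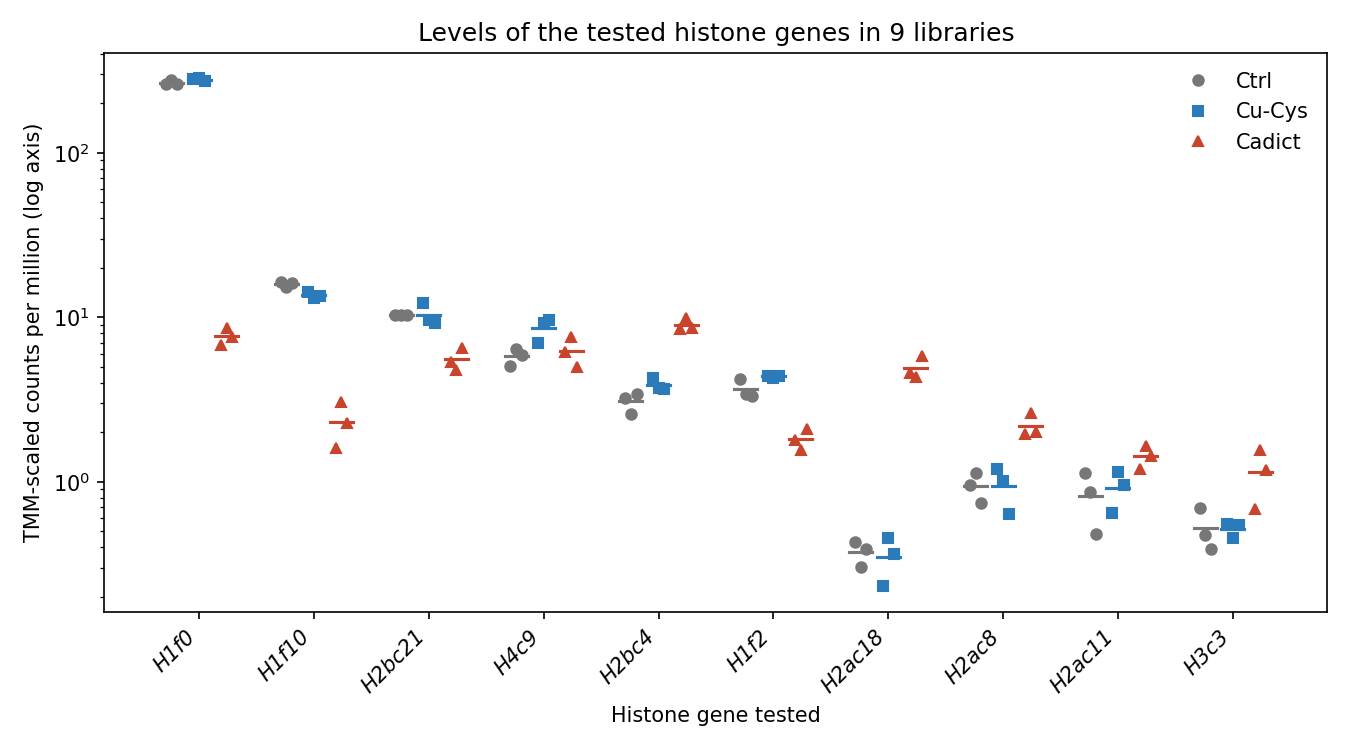
TMM-scaled CPM (vertical log axis) of the 10 tested histone genes (horizontal axis) in each library; points are libraries and bars are group means of 3. H1f0 dropped from 262 to 284 in Ctrl and Cu-Cys libraries to 6.80 to 8.63 with Cadict, whereas H2ac18 rose from at most 0.457 to at least 4.36.

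How many histone genes were called hung on 1 library and on the filter. Without Cadict replicate 3, 14 members passed the filter and 10 were called in Cadict against Ctrl cells, 6 of them higher and 4 lower. H2bc21 and H1f2 then joined the falls, and H2ac23, H3c15 and the identical pair H2bc23 and H2bc24 the rises, while H2ac8 was lost. The 4 added rises reached the filter's limit in the 2 remaining Cadict libraries and in 0 others, so they were tested only because they were high with Cadict and had to differ. With every gene of at least 1 count included, 8 were called, among them H2ac23 and H2ac4 in addition to the 5 above and H1f2. Over all genes, 2458 were then called higher and 3497 lower. For the fit without Cadict replicate 3 no share over all genes is given, so its count does not set the histone genes apart.

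Cadict was also set against Cu-Cys, which asks what the full nanodrug changed beyond copper and cystine. Here 3 of the 10 genes were called higher, H2ac18 with its fixed rise among them, and 3 lower, against 18.6% and 23.6% of all tested genes. Both comparisons of Cadict cells share the Cadict libraries, so their values are given side by side and not as a repeat. H1f0 was 36.4-fold lower than in Cu-Cys cells (log2 fold change -5.19 ± 0.07, adjusted p = 6.6e-17) and H1f10 was 5.88-fold lower (log2 fold change -2.56 ± 0.15, adjusted p = 1.4e-10). H1f2 passed the limit in this comparison, at 4.38, 4.3 and 4.42 CPM in Cu-Cys libraries and a 2.39-fold lower level with Cadict (log2 fold change -1.26 ± 0.18, adjusted p = 6.8e-06).

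The rises over Cu-Cys were those of H2ac18, at 13.8-fold (log2 fold change 3.78 ± 0.25, adjusted p = 9.3e-10), H2bc4 at 2.32-fold (1.22 ± 0.13, adjusted p = 3.0e-07) and H2ac8 at 2.3-fold (1.20 ± 0.27, adjusted p = 0.00063). H2ac18 was tested only because it was high with Cadict, so its call was fixed by its selection here too. With library totals H2bc4 stood at 0.33 and H2ac8 at 0.32 on the log2 scale, and neither was called. H2bc21, at 12.1, 9.65 and 9.26 CPM in Cu-Cys libraries, had a log2 fold change of -0.89 ± 0.14 (adjusted p = 1.9e-05), and H4c9, at 7.01, 9.28 and 9.62 CPM, one of -0.48 ± 0.16 (adjusted p = 0.013), neither past the fold limit. With library totals both were called lower, at -1.77 and -1.36. Without Cadict replicate 3 the count of called genes was 10 of 14 here too, and no share over all genes is given for it. Among them were H2ac23, H3c15, H2bc23 and H2bc24, which passed the filter only through the Cadict libraries.

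Cu-Cys against Ctrl asked whether copper with cystine alone changed these genes, and 0 of the 10 were called, where 0.167% of all tested genes were called higher and 1.47% lower. edgeR gave 3 of them an unadjusted p under 0.05, and neither DESeq2 nor limma on TPM or FPKM called any. At an adjusted p of at most 0.05 without a limit on the fold change, 1 was higher and 1 lower, where the shares of all tested genes were 22.6% and 22.4%.

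The gene that was higher was H4c9, with all Cu-Cys libraries above all Ctrl libraries and a 1.49-fold difference (log2 fold change 0.58 ± 0.14, adjusted p = 0.0043). The one that was lower was H1f10, at 14.2, 13.1 and 13.5 CPM in Cu-Cys libraries, with a log2 fold change of -0.24 ± 0.09 (adjusted p = 0.041). H2bc4 at 0.33 ± 0.14 (adjusted p = 0.070) and H1f2 at 0.26 ± 0.13 (adjusted p = 0.12) did not pass, although their groups did not overlap, and H2ac18 stood at -0.10 ± 0.40 (adjusted p = 0.87). Of the remaining 5 genes, H2ac11 stood at 0.15 and the others nearer to 0, and their groups overlapped.

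**Figure D3:**
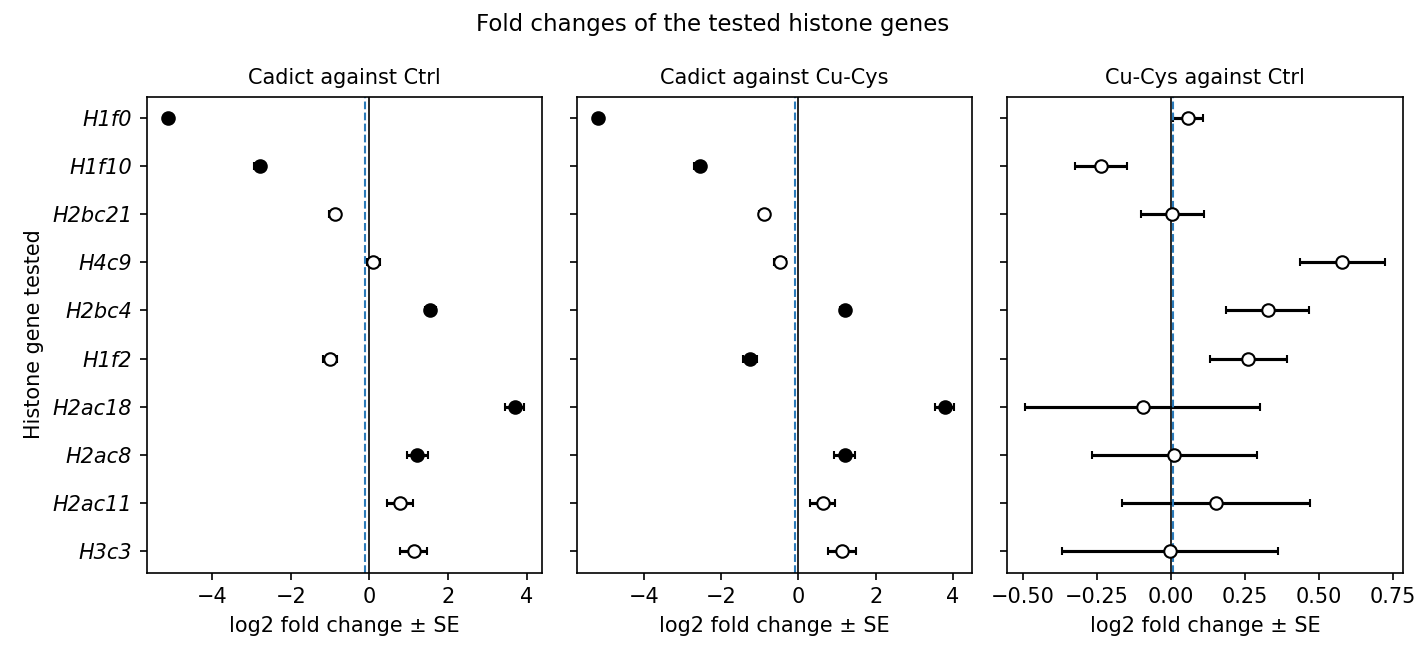
log2 fold changes (horizontal axes, which differ in range) of the 10 tested histone genes in 3 comparisons, with standard errors as bars; filled points were called, and the dashed line is the median over all tested genes. In both Cadict comparisons H1f0 and H1f10 lie far left and H2ac18 far right, and in Cu-Cys against Ctrl no point is filled.

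The other 54 genes, 52 of them replication-dependent, were too low to test. Of these, 17 never had more than 3 counts in a library and only 8 reached 10 counts in any library. Together the 52 gave 121, 107 and 117 counts in Ctrl, 135, 93.1 and 101 in Cu-Cys, and 140, 183 and 144 in Cadict libraries, so the sums were higher in the Cadict libraries. Mean counts were higher in Cadict than in Ctrl libraries for 30 of the 54, lower for 19 and equal for 5. No share over all genes is given for this split, and members that share reads are not separate observations. The split therefore does not set the histone genes apart. A lack of change in any single gene among them was not detectable at this depth.

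The highest of the untested genes were H2ac23 of H2A and H4c18 of H4. H2ac23 was at 0.173, 0.173 and 0.174 CPM in Ctrl, 0.323, 0.183 and 0.228 in Cu-Cys, and 1.02, 0.872 and 0.672 in Cadict libraries, with all Cadict values above the others. H4c18 was at 0.260, 0.216 and 0.305 CPM in Ctrl, 0.277, 0.183 and 0.274 in Cu-Cys, and 0.425, 1.39 and 0.252 in Cadict libraries, where 1 library decides the mean. The share of 50-base stretches also found in another gene was 93.5% for H2ac23 and 85.6% for H4c18. Reads of both could therefore not be placed with certainty.

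Reads that fit several genes blurred tested and untested members. Besides H2ac18, the share of 50-base stretches also found in another gene was 78.90% for H2ac11, 46.99% for H3c3 and 43.21% for H2ac8. It was 30.62% for H2bc4, spread over 220 other genes, and 28.91% for H4c9. H1f10, H1f2, H1f0 and H2bc21 had lower shares. Counts of H2bc4, H2ac8 and H2ac11 included values that were not whole numbers, so their levels carry this uncertainty too. Over the members, 26.6% of the deposited counts were not whole numbers, against 9.77% over all genes, and the median share of 50-base stretches also found in another gene was 54.5%. H2bc23 and H2bc24 had identical values in every library. H3c14 was at 0 in 8 libraries and at 19.5 counts in Cadict replicate 3, while its near-copy H3c15 had 14 and 10 counts in the other Cadict libraries and 0 in that one. The sum of H3c14 and H3c15 was 0, 2 and 1.26 in Ctrl, 0, 0 and 2 in Cu-Cys, and 14, 10 and 19.5 in Cadict libraries. H2bc23 and H2bc24 summed to 6.74, 8.44 and 12 in Ctrl, 11.4, 4.16 and 5.68 in Cu-Cys, and 21.4, 28.0 and 9 in Cadict libraries. These pairs were examined after their values were seen, and H3c14 and H3c15 lie beside H2ac18 and H2ac19 on chromosome 3.

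The annotated transcript end was then set beside the levels. Among the 39 genes with a stem-loop, 18 have an annotated transcript that runs more than 100 bases past it and 21 do not, and 9 hold the letters AATAAA, the poly(A) signal, in that stretch. H1f2 has 840 bases after the stem-loop with AATAAA, H4c9 has 330 without it, and H2ac8 has 151 with it. H3c3 has 74 bases, H2ac18 35 and H2ac11 23, none with AATAAA. The 18 genes with the longer stretch summed to 273 ± 10.9 (SD, n = 3) counts in Ctrl, 333 ± 19.5 in Cu-Cys and 169 ± 7.97 in Cadict libraries, and the 21 with the shorter one to 80.2 ± 15.4, 86.5 ± 4.59 and 149 ± 13.4. The 21 replication-dependent genes in which the search found no stem-loop, H2bc21 and H2bc4 among them, summed to 349 ± 12.3, 344 ± 49.3 and 216 ± 19.1. Some of these have short annotated transcripts, so they are grouped by the annotation and may still have the element. In unscaled counts the shorter kind was thus higher in Cadict than in Ctrl libraries and the other 2 kinds lower, and single genes carried this. Without H4c9 and H1f2 the longer kind summed to 55.8 ± 2.47 in Ctrl and 74.7 ± 5.25 in Cadict libraries, without H2bc21 the genes with no match to 112 ± 13.4 and 150 ± 22.9, and without H2ac18 the shorter kind to 71.6 ± 14.6 and 91.0 ± 19.8. After TMM scaling all 3 whole sums were higher in Cadict, at 14.4, 12.7 and 18.4 CPM for the longer, the shorter and no match against 11.8, 3.48 and 15.2 in Ctrl libraries. The median gene had a mean count of 1.96 in Ctrl and 3.21 in Cadict libraries for the longer kind, 1.35 and 4 for the shorter, and 2.20 and 1.49 for no match. Whether these reads came from tailed or untailed molecules was not tested.

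**Figure D4:**
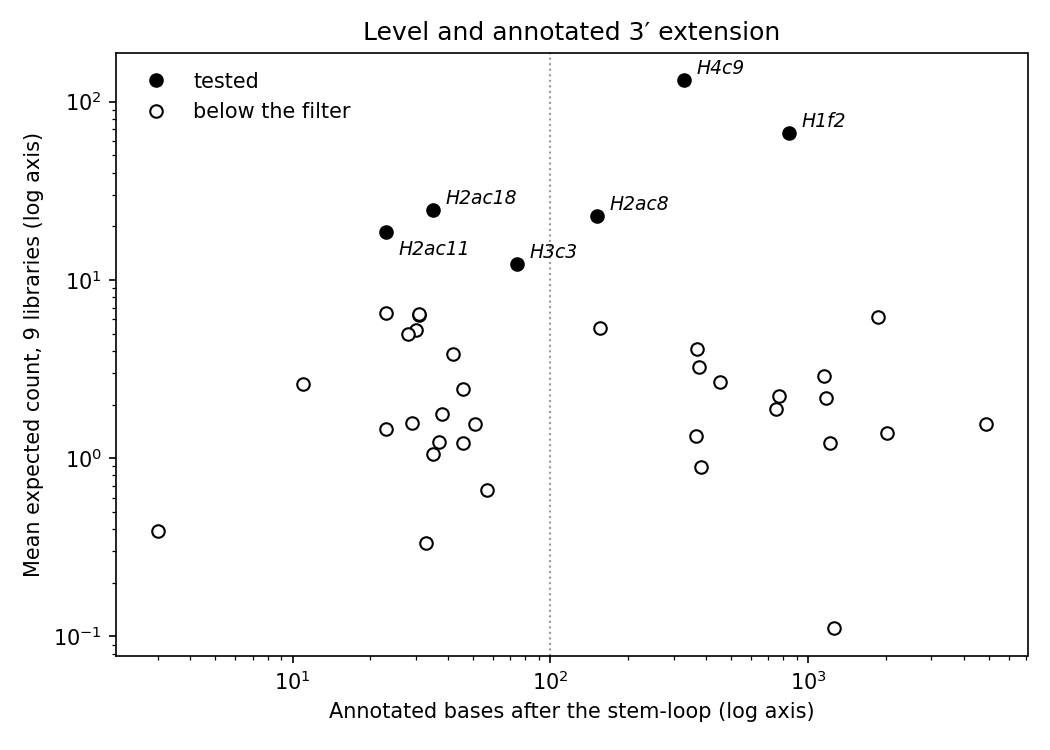
Mean expected count over 9 libraries (vertical log axis) against the annotated bases after the stem-loop (horizontal log axis) for the 39 histone genes with a match; filled points were tested and the dotted line is at 100 bases. The tested genes lie on both sides of the line, and most genes on either side have under 10 counts.

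Genes that make, cut and bind histones and their mRNAs were taken from 7 lists, whose counts stand beside 20.7% called higher and 27.1% called lower over all tested genes. Among 13 genes of histone gene transcription, 5 fell and 0 rose in Cadict against Ctrl cells by edgeR's test (3 were higher at an unadjusted p under 0.05, and DESeq2 called 1 higher), with a median log2 fold change of -0.71. Ccne2 and Ccne1, which encode the cyclins E that switch on Npat, fell by 3.77 and 2.86 on the log2 scale, and Coil, which encodes coilin, fell by 2.58. Npat itself was at 69.7, 70.6 and 71.4 CPM in Ctrl and 41.7, 31.9 and 41.4 in Cadict libraries (log2 fold change -0.88 ± 0.09, adjusted p = 8.1e-08), short of the fold limit with TMM and past it with library totals (-1.83).

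Of 23 genes for 3′ end processing and decay of histone mRNA, 7 rose and 3 fell. Both U7-specific proteins were among the falls: Lsm10 was at 17.0, 16 and 14.7 CPM in Ctrl and 1.87, 2.27 and 2.77 in Cadict libraries (log2 fold change -2.78 ± 0.14, adjusted p = 1.6e-11), and Lsm11 was lower by a log2 fold change of -2.31 ± 0.14 (adjusted p = 2.0e-10). The largest rise was that of Snrpf, a ring protein shared with splicing particles, at 1.98 ± 0.09 (adjusted p = 5.8e-12; not called on the TPM scale, at 0.63), so the list did not move one way. Slbp was at 157, 160 and 165 CPM in Ctrl, 145, 154 and 151 in Cu-Cys, and 147, 155 and 148 in Cadict libraries, a log2 fold change of -0.10 ± 0.05 (adjusted p = 0.060) that became 0.017 with DESeq2 size factors and, past both limits, -1.06 with library totals. Casp8ap2, which helps bring the cutting machinery to the genes, stood at -0.84 ± 0.09 (adjusted p = 1.9e-07) with TMM, short of the fold limit, and was called lower with library totals (-1.80). Eri1, an exonuclease that trims histone mRNA ends, stood at 0.38 ± 0.06 (adjusted p = 1.6e-05) with TMM and at -0.58 with library totals, short of the fold limit on both.

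Of 21 genes of the polyadenylation machinery, 5 rose and 1 fell, and the share that rose was near that over all tested genes. Pcf11, which couples cleavage to the end of transcription, was at 46.8, 43.0 and 43.6 CPM in Ctrl and 304, 259 and 308 in Cadict libraries, a 6.54-fold rise (log2 fold change 2.71 ± 0.07, adjusted p = 1.9e-14). Cstf3 (1.54 ± 0.05, adjusted p = 1.6e-13) and Rbbp6 (1.41 ± 0.08, adjusted p = 2.0e-10) rose as well with TMM, though not past the limit with library totals (0.59 and 0.46).

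Among 11 replication-independent variants, which include H1f0 and H1f10, 3 rose and 5 fell, and H2aj rose 3.40-fold with TMM (log2 fold change 1.77 ± 0.11, adjusted p = 2.8e-10), a call lost with library totals (0.81). Of 26 histone chaperones, 4 rose and 5 fell, with Npm1 higher by 1.92 ± 0.06 on the log2 scale with TMM (adjusted p = 1.0e-13, and 0.97, not called, with library totals) and Tonsl (-2.67 ± 0.12, adjusted p = 9.5e-12) and Cdan1 (-2.14 ± 0.11, adjusted p = 3.3e-11) lower. Of 38 S phase genes, 3 rose and 7 fell. Tk1, thymidine kinase, had a log2 fold change of -2.63 ± 0.06 (adjusted p = 1.5e-15), and Rfc2, a clamp loader subunit, one of -1.71 ± 0.11 (adjusted p = 6.0e-10). The S phase genes therefore did not fall together, with a median log2 fold change of 0.16.

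In the mitosis list 14 of 20 genes were called lower and 0 higher by edgeR, with a median log2 fold change of -1.37, and DESeq2 called 13 lower and 0 higher. Without the fold limit 2 of its genes were higher at an adjusted p of at most 0.05, and the same number at an unadjusted p under 0.05. Plk1 (-3.74 ± 0.10, adjusted p = 1.1e-14), Kif20a (-2.87 ± 0.08, adjusted p = 4.2e-14) and Ccnb1 (-2.49 ± 0.07, adjusted p = 2.5e-14) fell most among its abundant members. In Cu-Cys against Ctrl cells 0 genes of any of the 7 lists were called by edgeR or DESeq2, although between 5 and 18 genes of each list had an unadjusted p under 0.05. No share over all genes is given for that limit. At an adjusted p of at most 0.05, 22.6% of all tested genes were higher and 22.4% lower. The counts of genes under an unadjusted p of 0.05 therefore do not set the lists apart. The part of these genes in the histone levels was not tested.

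**Figure D5:**
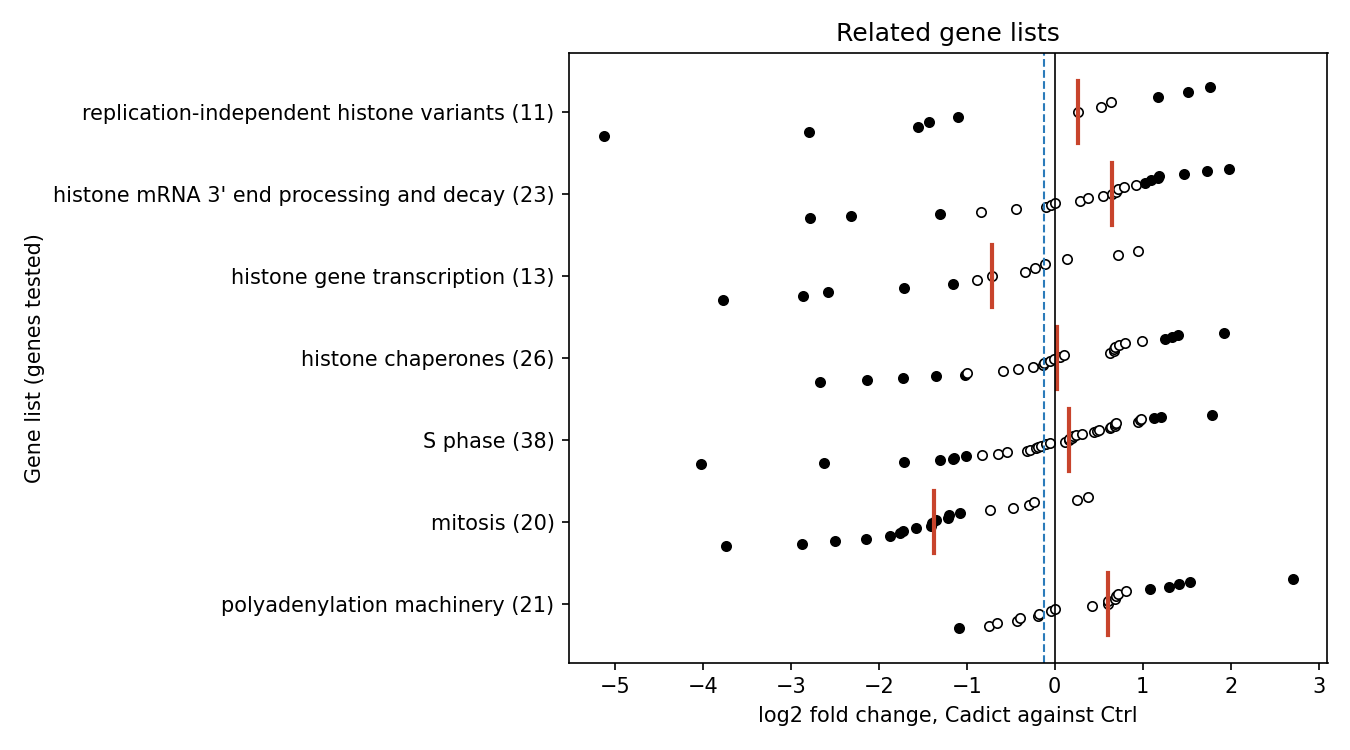
log2 fold changes in Cadict against Ctrl cells (horizontal axis) of the genes in 7 related lists (vertical axis, with the number tested); filled points were called, red bars are list medians and the dashed line is the median over all tested genes. The mitosis list has its median at -1.37 and no filled point on the right, while the 3′ end processing list has Lsm10 and Lsm11 far left and most other genes on the right.

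The cells were checked against markers of the labelled line. Of 8 epithelial and colon markers, 7 were in the table. Cdh1 and Krt19 had at least 10 counts in all libraries, Epcam was at 0 in 8 of 9 libraries, and Krt18 had no more than 2 counts in any. Egfr, the receptor that GE11 binds, had 0 to 5 counts per library. Summed, these markers were at 6.83 to 8.70 CPM of library totals in Ctrl, 4.80 to 5.29 in Cu-Cys and 16.1 to 17.4 in Cadict libraries. Of 6 fibroblast markers, 5 reached 10 counts throughout, and their summed level was 874 to 924 CPM of library totals in Ctrl, 485 to 492 in Cu-Cys and 113 to 127 in Cadict libraries. This sum was largely Col1a2, with 13496, 13008 and 12782 counts in Ctrl, 6713, 6911 and 7011 in Cu-Cys, and 1520, 1350 and 1503 in Cadict libraries. Col1a1, Pdgfra and Pdgfrb also had fewer counts in both treated groups. Dcn did not fall, at 15, 10 and 17 in Ctrl and 15, 11 and 12 in Cadict libraries. The sum fell in Cadict cells as H1f0 did, but also in Cu-Cys cells, where H1f0 was not called. Immune markers summed to at most 0.276 CPM in any library, and endothelial markers to at most 2.48. The part of these markers in the histone results was not tested.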

How the data were processed

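The authors deposited, per gene and library, an expected count without normalization, TPM, FPKM and a signal value, which is the count divided by 1 size factor per library. The submitters' processing notes name HISAT2 2.1.0, Bowtie2 2.3.4.3, RSEM 1.3.1 and the builds GRCm39 and GRCh38.p13 without roles. The labels name a column kit and DNA nanoball sequencing, whereas the study's methods name TRIzol and an Illumina instrument. Table columns CC and CCGE were read as Cu-Cys and Cadict, the latter an inference from its components. The expected counts were rounded, filtered with filterByExpr (count limit 10), scaled by TMM and fitted in 1 quasi-likelihood model of 3 groups with edgeR 4.0.16 in R 4.3.3. The fold and p limits follow the study's methods. The step was tested on simulated data in which few genes changed, equally up and down, and none from a low Ctrl count. That simulation did not cover a change in many genes at once or counts as low as those of most members. Every member that passed the filter is named. Values in every library are given for the 12 members with the highest mean level and the 3 largest rises and falls of each comparison. For each related list, the 3 genes with the largest change at a mean of at least 10 CPM are named, with Slbp, Npat, Casp8ap2, Lsm11 and Eri1. One gene that this rule names is not reported here. Members and lists were chosen with earlier results of these data known. Alternatives used DESeq2 1.42.0, limma 3.58.1, other scalings, filters and thresholds, and each library left out. Transcripts and coordinates came from GENCODE M21 on GRCm38, not the files' build. Columns of the authors' group averages were not used here.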

Additional observations from a re-analysis of the deposited data

How the results depend on the processing

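The replicate number is only shared: residual correlations of same-numbered libraries ran from -0.10 to 0.12 over 10405 genes, and only that of Ctrl and Cadict replicate 2 exceeded 0.1. With the replicate number as a block, 5, 0 and 6 histone genes were called in Cadict over Ctrl, Cu-Cys over Ctrl and Cadict over Cu-Cys, as without it, and their median log2 fold changes were 0.44, 0.03 and 0.08, so that the block changed no call given above.

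Called genes in Cadict against Ctrl numbered 8 without a filter, 3 without the genes outside the clusters, 9 where an adjusted p up to 0.05 sufficed, and 4 to 10 with 1 library left out. In Cadict against Cu-Cys they numbered 5 to 10 with 1 library left out. In Cu-Cys against Ctrl 2 passed an adjusted p of 0.05, and 0 were called with any library left out. The highest counts came without Cadict replicate 3, where 14 members passed the filter. Over all genes, 2458 were called higher and 3497 lower in Cadict against Ctrl without a filter. No share over all genes is given for the adjusted p of 0.05 in Cadict against Ctrl or for the left-out libraries. Those counts therefore do not set the histone genes apart.

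Median log2 fold changes of the tested histone genes, in the same order, were -0.51, -0.034 and -0.81 with library totals. They were -0.94, -0.11 and -1.08 on log2(TPM + 1), -0.97, -0.12 and -1.15 on log2(TPM + 0.1), -0.61, -0.039 and -0.79 on log2(FPKM + 1), and 0.95, -0.040 and 1.12 without a filter. Without the genes outside the clusters the 2 Cadict medians were 0.95 and 0.88, with pairs of near-identical genes summed (added after seeing the data) 0.95 and 0.88, without H2ac18 (also added) 0.10 and -0.48, and with only the 8 tested genes that share under 50% of their stretches -0.39 and -0.68. With 1 library left out the medians ran from 0.30 to 1.29, 0.0092 to 0.12 and -0.068 to 1.23, the lowest of the last without Cadict replicate 2. Leaving out a library lets up to 14 members pass the filter, so these medians cover different genes.

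The share of counts on histone genes was 0.00386%, 0.00422% and 0.00297% in Ctrl, Cu-Cys and Cadict libraries without the genes outside the clusters, 0.0624%, 0.0627% and 0.0189% as a share of TPM, and with 1 library left out 0.0393% to 0.0401%, 0.0393% to 0.0400% and 0.00348% to 0.00379%.

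Signs of single genes turned as follows in Cadict against Ctrl, in the order library totals, TPM + 1, TPM + 0.1 and FPKM + 1: H4c9 -0.85, -1.34, -1.35 and -0.99 (and from -0.065 without Cadict replicate 2 to 0.24 without Cadict replicate 3), H2ac11 -0.17, -0.54, -0.59 and -0.22, and Eri1 -0.58, -0.92, -0.93 and -0.58. H2ac8 gave -0.14 and -0.16 and H3c3 -0.26 and -0.30 on the TPM scales, and Slbp 0.017 both with DESeq2 size factors in edgeR and in DESeq2. In Cu-Cys against Ctrl, H2bc4 gave -0.084 and -0.087 on the TPM scales and -0.015 on FPKM, and H2ac18 ran from -0.33 to 0.12 with 1 library left out, above 0 without Ctrl replicate 1 or Cu-Cys replicate 1, and gave 0.078 summed with H2ac19. List medians turned, in the same order of scales, to -0.69, -1.05, -1.05 and -0.70 for variants, -0.31, -0.65, -0.65 and -0.30 for 3′ end processing, -0.92, -1.21, -1.27 and -0.87 for chaperones (also -0.052 without a filter, and -0.0082 to 0.079 with 1 library left out), -0.79, -1.13, -1.15 and -0.79 for S phase, and -0.35, -0.68, -0.70 and -0.34 for polyadenylation. On these scales the median over all genes itself moved to -1.08, -1.13, -1.39 and -0.78 by their scaling, and H2ac11, H2ac8, H3c3 and Eri1 stayed above it on each scale where their sign turned. The cause of the other changes was not tested.

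H1f0 and H1f10 kept their direction and their call in both Cadict comparisons under all 18 alternatives of scale, filter, tool and left-out library, with log2 fold changes against Ctrl of -6.40 to -5.01 and -4.11 to -2.59. H2ac18 ran from 2.07 to 3.83, but its call was fixed by its passing the filter through the Cadict libraries. For most histone genes depth is the limit, with under 10 counts in every library.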
